A study of Homo sapiens with 6 samples.

Results

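Small nucleolar RNA (snoRNA) host genes were examined as a family of 10 genes, GAS5, ZFAS1, SNHG1, SNHG5, SNHG6, SNHG7, SNHG8, SNHG12, SNHG15 and SNHG16, taken by name from the 62754 genes of a deposited table of read counts. Each of the 10 names matched 1 gene, and all 10 had at least 10 counts in all 6 libraries, so none was set aside as low. The lowest count of any member in any library was 199, for SNHG8. RNA had been sequenced from HK-2 cells, a human proximal tubule epithelial cell line, that received Cisplatin, a platinum drug toxic to the kidney tubule. The cells carried either a negative control siRNA (CP+siNC, 3 libraries) or an siRNA against NAT10, an acetyltransferase of RNA and protein (CP+siNAT10, 3 libraries). Both groups had received Cisplatin, so the comparison concerned NAT10 silencing within treated cells, and cells without the drug were not analysed here. The labels gave no dose or time; for its work in these cells the study chose the highest concentration it had tried, applied for a day. Libraries held between 19321665 and 25192736 counts.

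snoRNA host genes carry snoRNAs in their introns. Splicing releases the intron, from which the small RNA is trimmed and packed with proteins into a particle that guides chemical modification of ribosomal or spliceosomal RNA, while the joined exons leave as a separate transcript. Many noncoding hosts share with ribosomal protein mRNAs a start of C and T bases, called a terminal oligopyrimidine tract, and their spliced RNAs are often removed by nonsense-mediated decay, the degradation of RNAs whose reading frames end early, when ribosomes read short open reading frames in them. GAS5 was named for its accumulation in growth-arrested cells.

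The start of each gene is shown because the stretch of C and T bases there is the sequence feature that host genes share with ribosomal protein genes. RefSeq start sites on GRCh38.p14 were matched for 8 of the 10 members; SNHG6 and SNHG15 were not matched. The lines give the 30 bases from the start site on, 5′ to 3′ on the gene's strand, and capitals mark a run of 5 or more C or T that lies at least that far within the first 10 bases, a rule set after the sequences had been seen. The stretches lay at chr1:173869016-173869045 for GAS5, chr20:49278642-49278671 for ZFAS1, chr11:62855856-62855885 for SNHG1 and chr6:85678704-85678733 for SNHG5. Those of SNHG7, SNHG8, SNHG12 and SNHG16 lay at chr9:136728155-136728184, chr4:118278762-118278791, chr1:28581844-28581873 and chr17:76557764-76557793. ZFAS1, SNHG8 and SNHG16 were on the plus strand and the others on the minus strand.
GAS5: agatgtgtttattttggagcctacaccagc
ZFAS1: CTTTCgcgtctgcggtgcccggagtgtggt
SNHG1: ctcaTTTTTCTactgctcgtggtaagtggc
SNHG5: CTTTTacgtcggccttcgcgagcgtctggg
SNHG7: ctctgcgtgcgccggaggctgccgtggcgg
SNHG8: cacattcgggaagcgtcgggattaggtgaa
SNHG12: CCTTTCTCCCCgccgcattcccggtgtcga
SNHG16: gcgTTCTTTTCgaggtcggccgcgtggctg

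Such a run was present at the RefSeq start of 5 of the 8 matched members, ZFAS1, SNHG1, SNHG5, SNHG12 and SNHG16, against 19.5% of 27305 RefSeq start sites. SNHG12 held the longest run of the 8, with 11 bases. The RefSeq start of GAS5 held no run and lay 163 bases upstream of the gene's edge in the deposited table. The RefSeq starts of SNHG12 and ZFAS1, which held runs, lay 1110 and 464 bases inside that edge, and those of the other 5 lay at most 59 bases from it. Of the 29 GAS5 transcripts in GENCODE 29, 8 held a run in their first 10 bases. The numbers for the others were 3 of 10 for ZFAS1, 4 of 25 for SNHG1, 7 of 23 for SNHG5, 3 of 5 for SNHG6, 0 of 4 for SNHG7, 2 of 5 for SNHG8, 10 of 17 for SNHG12, 0 of 10 for SNHG15 and 5 of 8 for SNHG16. By the same count 15.5% of the 133545 GENCODE 29 transcripts of the tested genes held one. A match in these bases is a description of the sequence and shows no translational control.

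The small RNAs themselves were represented by 25 annotated rows lying inside members on the same strand: 3 in ZFAS1, 7 in SNHG1, 1 in SNHG5, 1 in SNHG6, 3 in SNHG7, 1 in SNHG8, 5 in SNHG12, 1 in SNHG15 and 3 in SNHG16. Inside GAS5, RefSeq lists 11 snoRNA genes, 10 of them of the box C/D class by name. Of these 11, 0 matched a row of the deposited table by both name and place. From GENCODE 29 on GRCh38, 4 of the hosted snoRNAs with the most counts in their hosts are printed to show what the introns encode. Capitals mark the box C and box D letters (TGATGA and CTGA) or the terminal ACA box. Among those not printed, the SNORD22 row of SNHG1 with most counts and SNORD1C of SNHG16 held CTGA near the end but no TGATGA near the start. SNORD12C of ZFAS1 (chr20:49278940-49279028, plus strand) and SNORD50B of SNHG5 (chr6:85677589-85677658, minus strand) belong to the box C/D class, which guides ribose methylation. SNORA24 of SNHG8 (chr4:118279190-118279320, plus strand) and SNORA61 of SNHG12 (chr1:28579764-28579893, minus strand) belong to the box H/ACA class, which guides pseudouridine formation.
SNORD12C: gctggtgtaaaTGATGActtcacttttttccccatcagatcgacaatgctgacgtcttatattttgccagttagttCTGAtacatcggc
SNORD50B: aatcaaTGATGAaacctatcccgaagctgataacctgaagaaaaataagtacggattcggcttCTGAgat
SNORA24: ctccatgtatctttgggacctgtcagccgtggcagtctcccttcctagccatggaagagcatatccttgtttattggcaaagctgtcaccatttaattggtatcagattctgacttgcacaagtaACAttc
SNORA61: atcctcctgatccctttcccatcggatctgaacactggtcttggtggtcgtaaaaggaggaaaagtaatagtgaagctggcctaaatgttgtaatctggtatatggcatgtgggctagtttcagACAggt

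The silenced gene was checked first. NAT10 stood at 75.8, 71.4 and 73.2 CPM (counts in 1000000, relative to a library size corrected for composition by TMM) in the CP+siNC libraries and at 41.3, 40.5 and 42.4 CPM in the CP+siNAT10 libraries. All 3 silenced libraries lay below all 3 controls, which matched their labels. The log2 fold change of CP+siNAT10 against CP+siNC was -0.82 ± 0.04 (SE), so the mean of the silenced libraries was 56.4% of the control mean.

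The epithelial keratin KRT8 marked both groups equally, at 1469, 1465 and 1430 CPM in CP+siNC and 1444, 1435 and 1471 CPM in CP+siNAT10. Of the 12 HK-2 epithelial and proximal tubule markers, 7 passed the filter on low counts, 3 were called lower, KRT18 and GGT1 among them, and 1 was called higher (PAX8). LRP2, CUBN, SLC34A1, ANPEP and CDH1, defining genes of the mature tubule or of epithelium, had at most 8 counts in any library. The 8 markers of other cell types summed to 219, 209 and 226 CPM in CP+siNC and to 301, 280 and 281 CPM in CP+siNAT10. CD68, a lysosomal protein best known from macrophages, was the most abundant of them and rose by a log2 fold change of 0.40 ± 0.04 (SE). COL1A1 and PTPRC were the other 2 of the 3 tested that were called higher. PTPRC did not exceed 1.33 CPM in any library, and its call (log2 fold change 0.96) was lost by DESeq2 (0.97) and without CP+siNC replicate 1 (0.96), 2 (1.04) or 3 (0.86) or CP+siNAT10 replicate 2 (0.46). PECAM1, CDH5 and DCN had at most 7 counts, and HBB and ALB were at 0 in all 6 libraries. What part this shift had in the host gene differences was not tested. In bulk RNA, fewer cells expressing a gene and less RNA per cell cannot be told apart.

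In the comparison of the groups, 7 of the 10 host genes were called lower in CP+siNAT10 at an adjusted p under 0.05 (Benjamini-Hochberg over 19874 tested genes, from edgeR's quasi-likelihood test), and 0 were called higher. Among all tested genes 22.3% were called lower and 21.8% higher. DESeq2 called 4 of the 10 lower, GAS5, ZFAS1, SNHG5 and SNHG7, and 0 higher, and no member was higher at an unadjusted p under 0.05 in edgeR's test. The largest difference among the members was a log2 fold change of -0.46, so 0 members passed both limits, an adjusted p under 0.05 together with a log2 difference larger than 1 either way, which 2.33% of the tested genes passed in either direction. The median log2 fold change of the 10 members was -0.22, against 0.01 for all tested genes, and the fitted value was below 0 for all 10. The groups did not overlap, with CP+siNAT10 lower, for 7 members; the same held for 25.7% of tested genes.

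**Figure D1:**
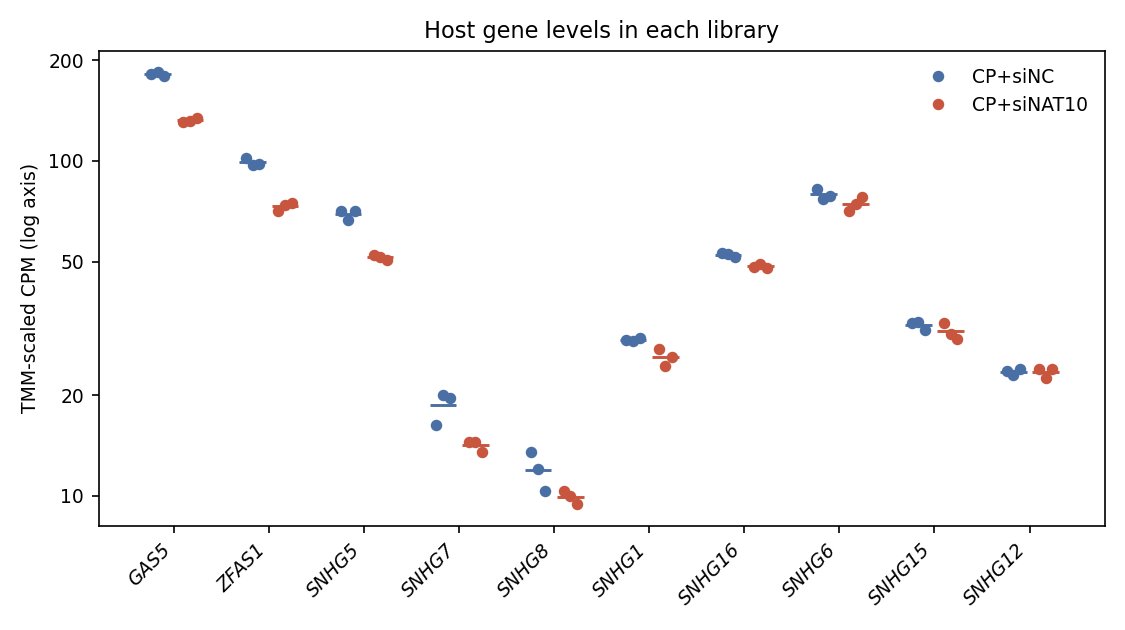
TMM-scaled CPM of the 10 host genes in each of the 6 libraries, on a log axis, with 3 dots for CP+siNC and 3 for CP+siNAT10 and a line at each group's mean. The groups are separate for the 7 genes on the left, from GAS5 to SNHG16, and overlap for SNHG6, SNHG15 and SNHG12.

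GAS5 (ENSG00000234741, chr1:173858559-173868882, minus strand) had the most counts of the family. It stood at 182, 184 and 179 CPM in CP+siNC and at 131, 131 and 134 CPM in CP+siNAT10. Replicates lay within a few CPM of each other, and the gap between the groups was far wider than the spread within either. The mean was 182 ± 2.28 CPM in controls and 132 ± 1.82 CPM after NAT10 silencing (SD, n = 3 each), which is 72.8% of the control level. The log2 fold change was -0.46 ± 0.03 (SE; adjusted p = 3.7e-12, edgeR quasi-likelihood test, Benjamini-Hochberg).

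ZFAS1 (ENSG00000177410, chr20:49278178-49298102, plus strand), transcribed away from ZNFX1 and host of the SNORD12 family, stood at 102, 97.1 and 97.7 CPM in CP+siNC and at 71.1, 73.8 and 75.1 CPM in CP+siNAT10. Every control library was above every silenced library. The silenced mean was 74.1% of the control mean, and the log2 fold change was -0.43 ± 0.04 (SE; adjusted p = 2.47e-10, edgeR quasi-likelihood test, Benjamini-Hochberg).

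SNHG5 (ENSG00000203875, chr6:85650491-85678748, minus strand), host of SNORD50B, stood at 70.8, 66.8 and 71.0 CPM in CP+siNC and at 52.5, 51.7 and 50.5 CPM in CP+siNAT10. The groups were again apart, and the silenced mean was 74.2% of the control mean. Its log2 fold change was -0.43 ± 0.04 (SE; adjusted p = 1.31e-09, edgeR quasi-likelihood test, Benjamini-Hochberg).

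SNHG7 (ENSG00000233016, chr9:136721366-136728184, minus strand), which carries SNORA17A and SNORA17B, stood at 16.3, 20.04 and 19.6 CPM in CP+siNC and at 14.5, 14.5 and 13.5 CPM in CP+siNAT10. The first control library was low beside the other 2, yet still above all silenced libraries. The log2 fold change was -0.40 ± 0.08 (SE; adjusted p = 6.5e-05, edgeR quasi-likelihood test, Benjamini-Hochberg). GAS5, ZFAS1, SNHG5 and SNHG7 were the 4 members that were called lower in each of the 13 alternative analyses, DESeq2 and the 6 analyses without 1 library included.

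SNHG8, SNHG1 and SNHG16 were called lower with smaller differences or fewer counts, and each call was lost in some alternatives. SNHG8 (ENSG00000269893, chr4:118278703-118279821, plus strand), host of SNORA24, stood at 13.5, 12.0 and 10.3 CPM in CP+siNC and at 10.3, 10.02 and 9.43 CPM in CP+siNAT10. The lowest control and the highest silenced library were nearly level, and relative to their mean the control values were spread more widely than in any other member. The log2 fold change was -0.27 ± 0.09 (SE; adjusted p = 0.0157, edgeR quasi-likelihood test, Benjamini-Hochberg). Over the alternatives the adjusted p ran from 0.00147 to 0.148: the call was lost without CP+siNC replicate 1 (log2 fold change -0.18), without CP+siNAT10 replicate 3 (-0.23) and by DESeq2 (-0.27).

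SNHG1 (ENSG00000255717, chr11:62851978-62855885, minus strand), the host of a cluster of box C/D snoRNAs from SNORD22 to SNORD30, stood at 29.1, 28.96 and 29.7 CPM in CP+siNC and at 27.4, 24.4 and 26.0 CPM in CP+siNAT10. Controls were tightly grouped and lay above all silenced libraries. The log2 fold change was -0.17 ± 0.05 (SE; adjusted p = 0.00977, edgeR quasi-likelihood test, Benjamini-Hochberg). Over the alternatives the adjusted p ran from 0.00408 to 0.0741, and the call was lost without CP+siNAT10 replicate 2 (log2 fold change -0.13) and by DESeq2 (-0.18).

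SNHG16 (ENSG00000163597, chr17:76557727-76670985, plus strand), host of SNORD1A, SNORD1B and SNORD1C, stood at 53.2, 52.7 and 51.8 CPM in CP+siNC and at 48.3, 49.3 and 47.8 CPM in CP+siNAT10. The silenced libraries were all lower by a narrow margin. The log2 fold change was -0.12 ± 0.04 (SE; adjusted p = 0.0251, edgeR quasi-likelihood test, Benjamini-Hochberg), and over the alternatives the adjusted p ran from 0.0174 to 0.136. The call was lost in 6 of the 13: with library size only (log2 fold change -0.08), with no filter on low counts (-0.11), by DESeq2 (-0.12), and without CP+siNC replicate 1 (-0.11), CP+siNAT10 replicate 1 (-0.11) or CP+siNAT10 replicate 3 (-0.11).

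The other 3 members were not called. SNHG6 (ENSG00000245910), host of SNORD87, stood at 82.7, 76.8 and 78.8 CPM in CP+siNC and at 70.9, 74.6 and 78.1 CPM in CP+siNAT10. The highest silenced library was above the lowest control. Its log2 fold change was -0.09 with a 95% interval from -0.18 to -0.00 (adjusted p = 0.0875, edgeR quasi-likelihood test, Benjamini-Hochberg). Over the alternatives the adjusted p ran from 0.0298 to 0.362, and SNHG6 was called lower without CP+siNC replicate 2 (log2 fold change -0.12) and without CP+siNAT10 replicate 3 (-0.12), while the value was nearest 0 with library size only and without CP+siNAT10 replicate 1 (-0.05 in both).

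SNHG15 (ENSG00000232956, chr7:44983019-44986650, minus strand), host of SNORA9, stood at 32.9, 33.1 and 31.2 CPM in CP+siNC and at 32.9, 30.5 and 29.4 CPM in CP+siNAT10. The groups overlapped, and the log2 fold change was -0.07 with a 95% interval from -0.18 to 0.04. It ran from -0.11 (without CP+siNAT10 replicate 1) to -0.03 (without CP+siNAT10 replicate 3, and with library size only) over the alternatives, and SNHG15 was not called in any of them. SNHG12 (ENSG00000197989, chr1:28578538-28582983, minus strand), which carries SNORA44, SNORA16A, SNORA61 and SNORD99, stood at 23.6, 23.0 and 23.9 CPM in CP+siNC and at 23.8, 22.5 and 23.9 CPM in CP+siNAT10. Libraries of both groups were interleaved, with a log2 fold change of -0.00 and a 95% interval from -0.12 to 0.11. Its sign depended on the analysis, since the fitted value ran from -0.02 to 0.03 over the alternatives and was not called in any of them.

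**Figure D2:**
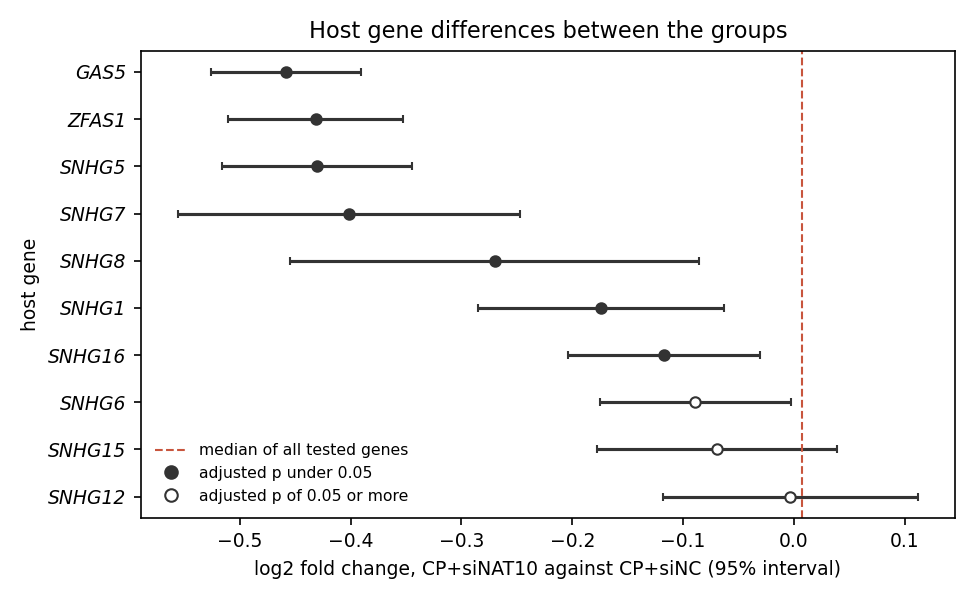
Log2 fold change of CP+siNAT10 against CP+siNC for each host gene, with its 95% interval from edgeR's quasi-likelihood fit; filled points had an adjusted p under 0.05 and the dashed line is the median of all tested genes, 0.01. Values run from -0.46 for GAS5 to -0.00 for SNHG12, and 7 points are filled.

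Together the 10 host genes took up 606, 594 and 593 CPM in the CP+siNC libraries and 483, 483 and 488 CPM in the CP+siNAT10 libraries. The sum was 598 ± 7.13 CPM in controls and 485 ± 3.12 CPM in silenced libraries (SD, n = 3 each), or 81.0% of the control sum, with no overlap. GAS5 alone supplied 30.02% to 30.9% of the sum in controls and 27.2% to 27.5% in silenced libraries.

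Levels of different genes were compared per length, in RPKM (CPM per kilobase of the length listed beside the counts). In CP+siNC GAS5 led at 36.9 ± 0.463 RPKM, followed by SNHG6 at 31.4 ± 1.19 and ZFAS1 at 11.9 ± 0.336 (SD, n = 3). SNHG16, SNHG15, SNHG1, SNHG5, SNHG12 and SNHG7 came next, from 9.10 down to 3.81 RPKM, and SNHG8 was last at 1.81 ± 0.239. SNHG5 at 5.52 ± 0.187 and SNHG12 at 5.50 ± 0.108 did not differ beyond their spread, while the other neighbours in this order did not overlap in CP+siNC. In CP+siNAT10 SNHG6 was at 29.5 ± 1.44 RPKM and GAS5 at 26.8 ± 0.369, an order that depended on the lengths used. How the listed lengths were made is not given in the sources used here. That of SNHG8, 6614 bases, exceeds the 1119 bases between its start and end, as do those of SNHG1 (3976 against 3908) and SNHG15 (3943 against 3632), and the same holds in 469 rows of the table. With the longest GENCODE 29 transcript without a retained intron as the length, an alternative chosen after seeing the data, GAS5, SNHG6 and ZFAS1 remained the first 3 in CP+siNC at 181, 123 and 92.1 RPKM, SNHG5 rose from place 7 to place 4 at 67.4 RPKM and SNHG8 from place 10 to place 6 at 17.8 ± 2.35 RPKM, where it overlapped SNHG1 in place 5 (19.7 ± 0.264). With these lengths GAS5 was also above SNHG6 in CP+siNAT10, at 131 ± 1.81 against 115 ± 5.62 RPKM (SD, n = 3).

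The snoRNA rows inside the members held few reads. All 25 together had 405, 508 and 452 counts in CP+siNC and 510, 463 and 544 counts in CP+siNAT10, and the whole class of 553 snoRNA and scaRNA rows had between 3738 and 4597 counts per library, at most 0.0193% of a library. The libraries came from an mRNA kit, so mature snoRNAs, which are short and have no poly(A) tail, are expected to be largely missing, and a read in such a row can come from an unspliced or intron-retaining host transcript. Of the 25 rows 10 were tested, and 0 were called in either direction by edgeR's quasi-likelihood test or at an unadjusted p under 0.05. DESeq2 gave 9 of them an adjusted p and called 0. SNORA61 in SNHG12 had the most counts, 104, 114 and 105 in CP+siNC against 152, 116 and 158 in CP+siNAT10, and its log2 fold change was 0.20 ± 0.12 (SE). Without CP+siNAT10 replicate 2 it was called higher with a log2 fold change of 0.30. SNORD12C in ZFAS1 had 20, 21 and 27 counts against 16, 22 and 19, with a log2 fold change of -0.45 ± 0.26 (SE). SNORD50B in SNHG5 had 11, 8 and 11 against 11, 10 and 5, with -0.40 ± 0.40. The tested rows above 0 were SNORA61, SNORD99 in SNHG12 (0.22 ± 0.19) and SNORA9 in SNHG15 (0.29 ± 0.32). The rows are no measure of the mature RNAs.

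Several members share ground with other annotated genes, which bears on whose reads were counted. All 9 pairs of rows with equal counts in all 6 libraries and at least 60 counts in all overlapped on the same strand, so reads falling on more than 1 gene appear to have been counted for each. Inside ZFAS1 lay 3 short unnamed genes on the same strand. ENSG00000277967 had 809, 843 and 803 counts in CP+siNC and 574, 622 and 639 in CP+siNAT10, with a log2 fold change of -0.62 ± 0.05 (SE), and ENSG00000274760 had 939, 1041 and 993 against 740, 785 and 961, with -0.46 ± 0.05. ENSG00000277830 had at most 34 counts and a log2 fold change of -0.56 ± 0.25; its adjusted p was 0.0754 in edgeR's quasi-likelihood test, and it was called lower without CP+siNC replicate 3 (log2 fold change -0.72) and without CP+siNAT10 replicate 1 (-0.83). The first 2 were lower in every silenced library by CPM, as was ZFAS1, with which they may share reads. SNHG5 lay almost wholly within ENSG00000271793 on the same strand, which had 9456, 10404 and 9713 counts in CP+siNC and 10093, 10553 and 12303 in CP+siNAT10 and whose first base was the RefSeq start of SNHG5. That gene did not follow SNHG5: its log2 fold change was -0.04 ± 0.03 (SE). How many of the SNHG5 reads belonged to it could not be worked out from the counts. Within SNHG7, SNORA17A shared its reads with the unnamed ENSG00000281808, since both had 37, 72 and 47 counts in CP+siNC and 42, 53 and 50 in CP+siNAT10, with a log2 fold change of -0.30 ± 0.19.

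On the opposite strand, GAS5 was overlapped by ZBTB37 (log2 fold change -0.01 ± 0.06, SE) and GAS5-AS1 (0.16 ± 0.37, at most 20 counts). SNHG16 was overlapped by ENSG00000284526 (-0.12 ± 0.08) and ST6GALNAC2 (-0.14 ± 0.31). DIPK1B, opposite to SNHG7, had 40, 45 and 36 counts in CP+siNC and 23, 33 and 33 in CP+siNAT10, and was called lower with a log2 fold change of -0.64 ± 0.20; the call was lost without CP+siNAT10 replicate 1 (-0.54) and by DESeq2 (-0.64). The kit kept strand, but whether the counting used it is not given in the sources used here.

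Neighbours within 1000 bases on the other strand, picked by position, gave a further reading of the same loci. ZNFX1 begins 113 bases from the start edge of ZFAS1 and runs the other way. It stood at 414 ± 11.8 CPM in CP+siNC and 419 ± 0.887 CPM in CP+siNAT10 (SD, n = 3), a log2 fold change of 0.02 ± 0.03 (SE) beside -0.43 for ZFAS1, and was not called. SLC3A2 begins 119 bases from the start edge of SNHG1 and was called lower at -0.18 ± 0.04, close to the -0.17 of SNHG1. TRNAU1AP and PRSS12 end near the far end of SNHG12 and SNHG8. PRSS12 had -0.01 ± 0.08 beside -0.27 for SNHG8 and was not called. TRNAU1AP was called higher at 0.34 ± 0.08 while SNHG12 was at -0.00. The difference between a host gene and its neighbour was not itself tested.

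Other host genes were described for comparison. Among 20 tested of 21 other noncoding host genes, 8 were called lower and 0 higher, with a median log2 fold change of -0.16; 0 were higher at an unadjusted p under 0.05 or by DESeq2. SNHG14, the long transcript of the imprinted SNORD115 and SNORD116 clusters, fell from 83.8, 78.8 and 80.5 CPM to 46.1, 48.9 and 47.5 CPM, a log2 fold change of -0.77 ± 0.04 (SE). SNHG3 fell from 54.3, 53.8 and 58.4 CPM to 42.9, 39.0 and 39.7 CPM, or -0.45 ± 0.05, close to GAS5. The share called lower by edgeR's test was 40.0% in this list and 70.0% among the 10 members. DESeq2 called 7 of this list and 4 of the members lower, and without CP+siNC replicate 1 the numbers were 7 and 5. Some genes of this list averaged under 1 CPM in CP+siNC, while the lowest member, SNHG8, averaged 11.9 CPM. The difference between the lists was not tested.

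Among the 30 host genes that encode ribosomal proteins or translation factors, all tested, 27 were called lower and 0 higher, with a median log2 fold change of -0.23, close to the -0.22 of the 10 noncoding hosts. None was higher at an unadjusted p under 0.05 or by DESeq2, and with library size only as the scaling 1 was called higher. RPL23, a protein of the large ribosomal subunit, fell from 460, 436 and 458 CPM to 329, 324 and 327 CPM (-0.47 ± 0.03, SE). EIF4G2, a translation initiation factor, fell from 606, 591 and 587 CPM to 394, 388 and 402 CPM (-0.59 ± 0.03). A run of C and T at the RefSeq start, as printed for the members above, was present in 17 of the 22 matched genes of this list and in 8 of the 18 matched other noncoding hosts.

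The 22 nucleolar and other protein-coding hosts had no shared direction, with 7 called lower, 6 higher and a median log2 fold change of 0.01, the same as for all tested genes. TCP1, a subunit of the cytosolic chaperonin, was lower (-0.30 ± 0.03, SE), as was ATP5F1B of the mitochondrial ATP synthase (-0.24 ± 0.03). PPAN, a ribosome assembly factor, was higher (0.24 ± 0.03), as was the poly(A) binding protein PABPC4 (0.24 ± 0.04). The run of C and T was found in 7 of 17 matched genes. With library size only 4 were called lower and 9 higher, and without CP+siNC replicate 1 the numbers were 4 and 6.

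**Figure D3:**
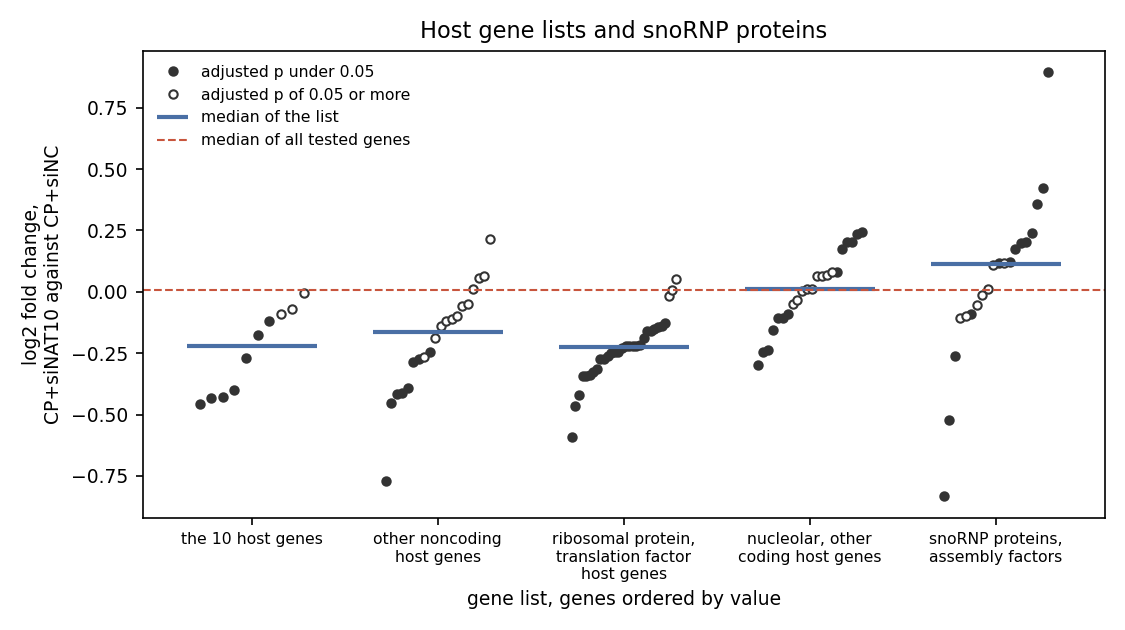
Log2 fold changes of CP+siNAT10 against CP+siNC for the 10 host genes, 3 lists of other host genes and the proteins of snoRNA particles, 1 point per tested gene ordered within its list, filled where the adjusted p was under 0.05, with a bar at each list's median and a dashed line at the median of all tested genes. The medians are -0.22, -0.16, -0.23, 0.01 and 0.11 from left to right. Some genes appear in both the list of nucleolar and other coding hosts and that of the particle proteins.

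Of 20 genes for snoRNA particle core proteins and assembly factors, 9 were called higher and 4 lower, with a median log2 fold change of 0.11. Some of these genes, called ones in both directions among them, are also in the list of nucleolar and other protein-coding hosts. NOLC1, a nucleolar and Cajal body phosphoprotein that binds snoRNA particles, rose from 552, 526 and 535 CPM to 1015, 976 and 1010 CPM (0.90 ± 0.03, SE), and GAR1, a core protein of box H/ACA particles, rose by 0.42 ± 0.05. RPAP3 and ZNHIT6, which act in the assembly of box C/D particles, fell, with log2 fold changes of -0.83 ± 0.03 and -0.52 ± 0.04. THUMPD1, the adaptor of NAT10 in the acetylation of transfer RNA, fell with NAT10 (-0.44 ± 0.04), while SNORD13, the snoRNA that guides NAT10 to 18S ribosomal RNA, had at most 2 counts in any library and was not tested.

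Since spliced host RNAs such as GAS5 are known substrates of nonsense-mediated decay, its factors and mRNA targets were set beside them. Of 18 decay factors, 6 were called higher and 3 lower, with a median log2 fold change of 0.04. SMG6, the endonuclease of the pathway, was higher (0.36 ± 0.05, SE), as was SMG5 (0.23 ± 0.03), while UPF3B and UPF3A were lower (-0.43 ± 0.04 and -0.22 ± 0.04). Of 17 mRNAs known as targets, 5 were called higher and 3 lower, with a median of 0.05. With library size only 8 were called higher. Counts per gene do not separate the transcripts of a gene, so decay of single transcripts was not measured. CARS1, a transfer RNA synthetase, was higher (0.33 ± 0.04), as was SMG5, which is in both lists, and the stress genes GADD45A and ATF4 were lower (-0.53 ± 0.04 and -0.36 ± 0.03).

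**Figure D4:**
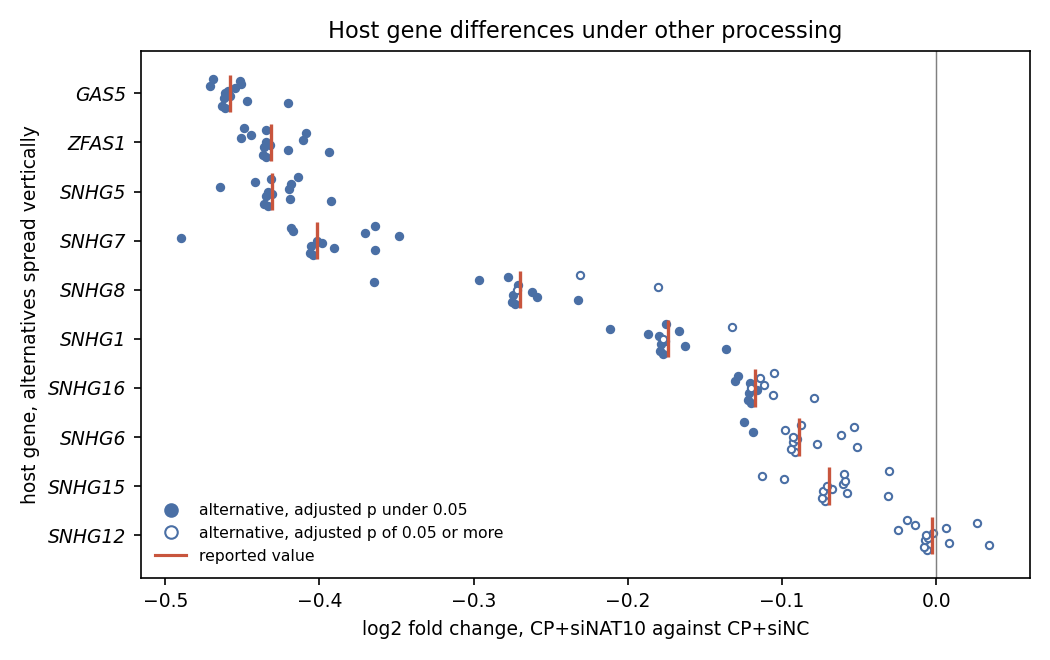
Log2 fold change of each host gene under the 13 alternative analyses (points, spread vertically; filled where the adjusted p was under 0.05) with the reported value as a line. GAS5 stays between -0.47 and -0.42, ZFAS1 between -0.45 and -0.39, SNHG5 between -0.46 and -0.39 and SNHG7 between -0.49 and -0.35, all filled, while SNHG12 has points on both sides of 0.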

How the data were processed

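RNA of 3 CP+siNC and 3 CP+siNAT10 libraries was sequenced for the study by a company, with a stranded mRNA kit that adds molecular identifiers. The submitters' processing notes name Trimmomatic 0.36, STAR 2.5.3a, featureCounts of Subread 1.5.1, edgeR 3.12.1 and GRCh38; the annotation release, the strand setting and whether identifiers were merged are not given in the sources used here. The deposited values are raw counts per gene, with positions and other columns such as gene length in bases. Groups and replicate numbers came from the labels and no sample was left out. Nothing says that replicates were separate cultures, so p-values measure the spread between these libraries only.

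The analysis used edgeR 4.0.16 in R 4.3.3. filterByExpr (minimum count 10, minimum total 15) kept 19874 of 62754 genes, with 99.8% of each library's counts. Libraries were scaled by TMM and compared with glmQLFit and glmQLFTest, two-sided, with Benjamini-Hochberg adjustment over all tested genes; genes were called at an adjusted p under 0.05, and separately also with a log2 difference larger than 1 either way. The SE is the size of the log2 difference divided by the root of its F value. CPM and RPKM were computed from the deposited counts. The fit was tested on simulated data. An exact permutation test of 3 against 3 cannot give a p below 0.10. Replicates differed by more than sampling noise, the mean chi-square of a gene being 1.74 to 2.55 over pairs of libraries of a group. Named genes were the 10 members, NAT10, up to 2 higher and 2 lower called genes of each list with the smallest p, overlapping genes with a mean of at least 10 counts per library, and defining cell markers; neighbours within 1000 bases and printed sequences were added after seeing the data. Some genes that these rules select are not reported here. Members and lists were chosen with earlier results of these data known. Alternatives were RLE, upper quartile and library size scaling, no filter and a stricter filter (1 CPM in all 3 libraries of a group), a replicate block, leaving out each library, and DESeq2 1.42.0. Sequences came from RefSeq (GRCh38.p14) and GENCODE 29 (GRCh38), and figures were drawn with matplotlib 3.10.9.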

Additional observations from a re-analysis of the deposited data

How the results depend on the processing

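Under the 13 alternative analyses 0 host genes were called higher, and the host genes called lower numbered 4 by DESeq2 and between 5 (without CP+siNC replicate 1) and 8 (without CP+siNC replicate 2) when 1 library was left out, against 7. Their median log2 fold change ran from -0.27 (without CP+siNC replicate 3) to -0.18 (without CP+siNC replicate 1) with 1 library left out. With library size only, the log2 ratio of the summed host gene level was -0.27 instead of -0.30, the ribosomal protein and translation factor hosts called higher were 1, the nucleolar and other protein-coding hosts called lower were 4 and those called higher 9 (against 7 and 6), and the decay targets called higher were 8. With 1 library left out, the nucleolar and other protein-coding hosts called lower ran from 4 to 7. Apart from fewer libraries in those analyses, the cause was not tested. No alternative reversed a call. Of the 58 other genes selected by the rules, 730 of 744 values kept their direction and side of the threshold; the exceptions were PTPRC, DIPK1B, SNORA61 and 2 unnamed genes.

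Replicate numbers are shared by the labels, but same-numbered libraries did not deviate together (correlations over 12304 genes of 0.01, 0.06 and -0.21), and no sign of pairing was found. With a replicate block 7 host genes were called lower, 0 higher, and 4318 genes lower and 4208 higher in all, against 4440 and 4331. SNHG8 had 199 to 257 counts per library, the fewest of the members.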

Other observations

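Beyond the host genes, 86 of the 553 snoRNA and scaRNA rows were tested, and 10 were called lower and 4 higher in CP+siNAT10 by edgeR's quasi-likelihood test, or 12 and 6 at an unadjusted p under 0.05. No row inside the 10 host genes was among those called. For comparison, 22.3% of all tested genes were called lower and 21.8% higher.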
